A study of Mus musculus with 14 samples.

Results

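Iron handling and ferroptosis control were followed through 10 genes, which move iron through macrophages or set how a cell withstands ferroptosis, in primary bone marrow-derived macrophages (pBMDMs). They are Gpx4, Aifm2, Fth1, Ftl1, Ncoa4, Tfrc, Slc11a1, Slc11a2, Slc40a1 and Acsl4, taken from the table by name. All 10 were found among the 55414 genes of the count table, and all 10 were among the 12851 genes with enough reads to be tested. The pBMDMs came from young adult wildtype C57BL/6N mice, were grown with M-CSF and spent 24 h in filtered supernatant of Pfa1 MEFs, a mouse embryonic fibroblast line in which 4-hydroxytamoxifen (4OHT) deletes GPX4. The groups were ctrl (supernatant of untreated MEFs, n = 3), Tam (supernatant of MEFs given 4OHT, which die by ferroptosis, n = 3), Tam Fer1 (4OHT with the ferroptosis inhibitor Ferrostatin-1, written TamFer1, n = 3), Fer1 (Ferrostatin-1 alone, n = 3) and medium ctrl (unconditioned medium, written medium, n = 2). The deletion was carried by the fibroblasts and not by the macrophages, so macrophage Gpx4 does not check the labels, and the supernatants carried any 4OHT and Ferrostatin-1 left in them. One MEF line supplied every supernatant.

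Macrophages take up iron bound to transferrin through the transferrin receptor, recover it from engulfed red cells, store it in ferritin and release it through ferroportin, the only known iron exporter of mammalian cells. Ferroptosis is a death by iron-dependent peroxidation of membrane lipids, which the selenoenzyme GPX4 counters by reducing lipid peroxides and the oxidoreductase encoded by Aifm2 by reducing ubiquinone. Iron regulatory proteins bind a hairpin, the iron-responsive element, when iron is scarce. Bound in a 5′ UTR the hairpin blocks translation of the message, and bound in a 3′ UTR it protects the message from decay, so that the RNA level shows only part of this control.

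The hairpins are shown because they set apart the messages among the 10 that hold the pattern. The pattern searched was CNNNNNCAGTGN on the sense strand of annotated transcripts, with 5 paired bases on each side of the 6-base loop (G-T pairs allowed). Matches in a UTR were found in 4 of the 10 genes, against 159 of 21901 protein-coding genes (0.726%), whose UTRs differ in length. The 10 were chosen by name for iron handling and ferroptosis control, so setting these shares side by side is not a test. Fth1, Ftl1 and Slc40a1 held 1 match each in the 5′ UTR and Tfrc held 4 in the 3′ UTR. No match says only that these letters with this pairing were not found. A stretch with the letters but an unpaired base within those 5 was not counted. The coordinates are those of GRCm38, and capitals mark the unpaired C and the loop.
Fth1 5′ UTR, chr19:9982732-9982760, plus strand: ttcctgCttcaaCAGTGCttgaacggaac
Ftl1 5′ UTR, chr7:45459779-45459807, minus strand: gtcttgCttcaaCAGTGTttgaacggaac
Ftl1-ps1 5′ UTR, chr13:74406428-74406456, plus strand: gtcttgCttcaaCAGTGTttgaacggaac
Slc40a1 5′ UTR, chr1:45925465-45925493, minus strand: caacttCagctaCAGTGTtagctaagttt
Tfrc 3′ UTR, chr16:32631219-32631247, plus strand: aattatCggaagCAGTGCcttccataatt
Tfrc 3′ UTR, chr16:32631598-32631626, plus strand: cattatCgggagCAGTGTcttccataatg
Tfrc 3′ UTR, chr16:32631663-32631691, plus strand: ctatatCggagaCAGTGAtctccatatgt
Tfrc 3′ UTR, chr16:32631710-32631738, plus strand: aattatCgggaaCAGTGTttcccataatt
The stretch of Ftl1 and that of Ftl1-ps1, a near-identical copy annotated as protein-coding, were the same letter for letter. Among the 4 genes with a match, both ferritin genes and Slc40a1 carry it ahead of the coding sequence, while Tfrc carries its matches behind it. The search cannot show that a gene without a match, such as Slc11a2, lacks the element.

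The library kit (Lexogen QuantSeq) primes at the poly(A) tail, so a count does not scale with transcript length. Total counts per library ranged from 7823051 to 11052352, and levels are given as CPM, the share of a gene in its library scaled by edgeR's TMM factors. At these depths 3 counts were worth 0.272 to 0.381 CPM, which allows for counting error alone. The 7 macrophage markers were detected in every group and summed to 18650 to 27615 CPM in ctrl and 27958 to 43692 CPM in Tam. The sums were 21379 to 27579 CPM in Fer1, 22242 to 28793 CPM in TamFer1 and 27335 to 34101 CPM in medium. Most of each sum was Lyz2, with a mean of 18494 CPM in ctrl and 26331 CPM in Tam. Of the 7, 0 passed in Tam against ctrl and 0 in Tam against TamFer1. The 9 erythroid markers summed to at most 0.762 CPM and the 6 lymphocyte markers to at most 0.531 CPM in any library, while 10 fibroblast markers summed to 16.0 to 121 CPM and 9 neutrophil markers reached 102 to 103 CPM in medium against 22.4 to 75.8 CPM in the other groups. The 6 dendritic cell markers summed to at most 3.43 CPM. Of 4 fibroblast markers tested, 1 was lower in Tam than in TamFer1 and 2 were higher in medium than in ctrl, and 3 of 7 macrophage markers and 1 of 4 neutrophil markers tested were higher in medium than in ctrl. The share of these cells in the results below was not tested, and in bulk RNA fewer cells of a type and less RNA per cell cannot be told apart. Libraries of replicate 3 stood apart from replicates 1 and 2 in several of the 10 genes, so values without that replicate are given where they change a result.

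Slc40a1, which encodes ferroportin, was the gene of the 10 that passed the test, being higher in Tam than in TamFer1 and higher in medium than in ctrl. It lies at chr1:45908068-45926523 on the minus strand (GRCm38, ENSMUSG00000025993). In ctrl its level was 47.3, 70.1 and 186 CPM in replicates 1, 2 and 3, and in Tam it was 108, 164 and 219 CPM. TamFer1 had 44.02, 57.8 and 101 CPM, Fer1 had 60.1, 71.4 and 112 CPM, and medium had 88.1 and 159 CPM. Replicate 3 was the highest library of every supernatant group, every Tam library exceeded every TamFer1 library, and the Tam and ctrl libraries overlapped through ctrl replicate 3. The means ran from 163 ± 55.4 CPM in Tam (SD, n = 3) through 123.4 ± 49.9 in medium (SD, n = 2), 101 ± 74.5 in ctrl (SD, n = 3) and 81.1 ± 27.1 in Fer1 (SD, n = 3) to 67.5 ± 29.5 in TamFer1 (SD, n = 3), and all neighbours in this order overlapped.

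**Figure D1:**
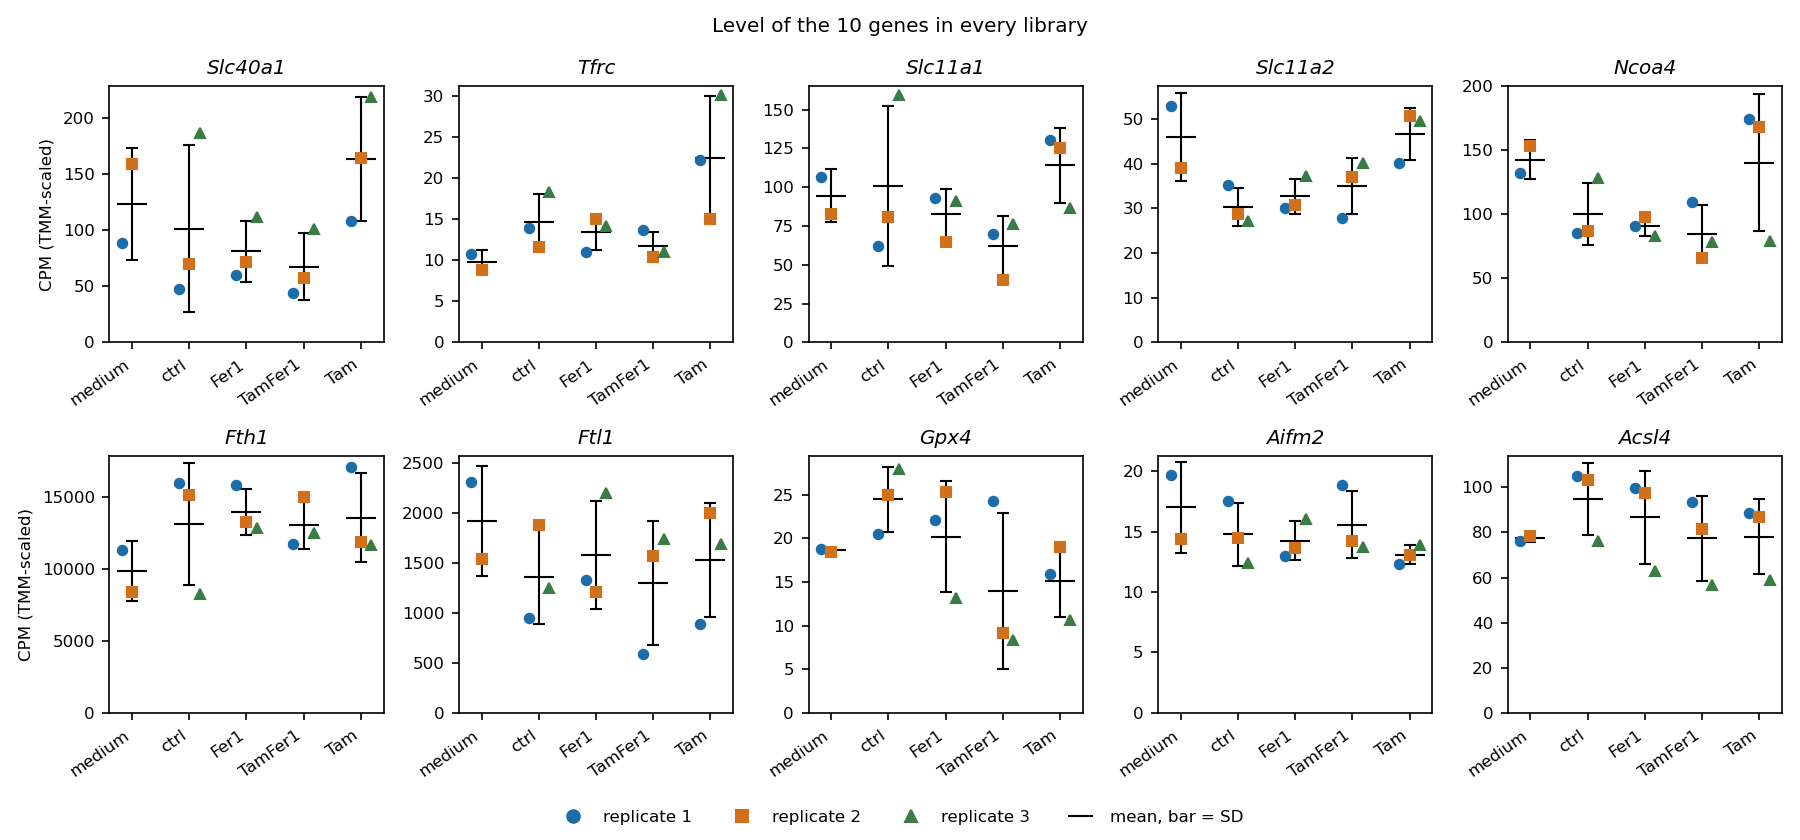
Level of the 10 genes in each library, in CPM on linear axes that start at 0, by group, with points for replicates 1 to 3 and a line and bar for the mean and SD. Slc40a1 lay between 108 and 219 CPM in Tam and between 44.02 and 101 CPM in TamFer1, and Fth1 lay between 8272 and 17088 CPM over all libraries.

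Against TamFer1, where the same 4OHT-treated MEFs were kept alive, Slc40a1 was 2.48-fold higher in Tam (log2 fold change 1.31, SE 0.21, adjusted p = 0.0132) and higher in 3 of 3 replicates. The log2 differences within replicates 1, 2 and 3 were 1.288, 1.5002 and 1.117. This call rested on the replicate block: the adjusted p was 0.49 without it at a log2 fold change of 1.28. Without replicate 1 the log2 fold change was 1.34 with an adjusted p of 0.28, and without replicate 2 it was 1.21 with an adjusted p of 0.39. Against ctrl, Slc40a1 was 1.81-fold higher in Tam (log2 fold change 0.85, SE 0.20, adjusted p = 0.0666), a difference that did not pass the threshold, although all 3 replicates were higher. The differences within replicates 1 and 2 were 1.18 and 1.22 and that within replicate 3 was 0.23, and without replicate 3 the log2 fold change was 1.20 with an adjusted p of 0.0123. Without replicate 1 it was 0.71 with an adjusted p of 0.59, and without replicate 2 it was 0.68 with an adjusted p of 0.89.

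With Ferrostatin-1 in both arms, the 4OHT difference of Slc40a1 pointed the other way. TamFer1 was below Fer1 in 3 of 3 replicates (log2 fold change -0.31, SE 0.20, adjusted p = 1.00), with differences of -0.45, -0.31 and -0.15. The difference between the 2 effects, tested as an interaction, was 1.16 on the log2 scale (SE 0.29, adjusted p = 0.29) and did not pass. Without replicate 3 it was 1.60 with an adjusted p of 0.0405, without replicate 1 it was 0.96 with an adjusted p of 1.00, and without replicate 2 it was 1.002 with an adjusted p of 0.94. Fer1 against ctrl gave a log2 fold change of -0.15 (SE 0.20, adjusted p = 1.00), and TamFer1 against ctrl gave -0.46 (SE 0.20, adjusted p = 0.95).

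Slc40a1 was also higher in fresh medium than in ctrl (log2 fold change 0.80, SE 0.23, adjusted p = 0.0469), by 0.89 in replicate 1 and 1.18 in replicate 2. This call was lost without the replicate block (0.29, adjusted p = 0.87), without replicate 1 (0.85, adjusted p = 0.28) and without replicate 2 (0.49, adjusted p = 0.62). Tam and medium differed by 0.05 on the log2 scale (SE 0.23, adjusted p = 0.96). The comparisons of Tam and of medium with ctrl share the ctrl libraries.

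**Figure D2:**
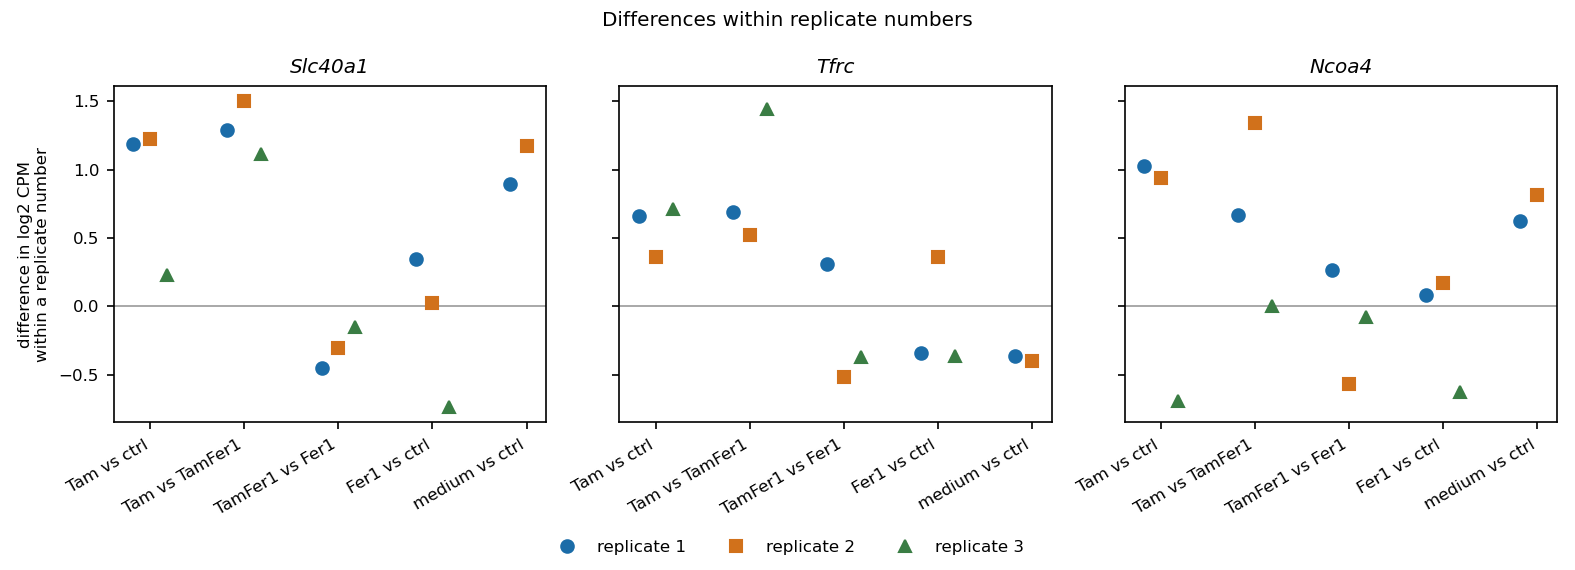
Differences in log2 CPM within a replicate number for Slc40a1, Tfrc and Ncoa4, in 5 comparisons on the horizontal axis, with a point per replicate and a line at 0. For Slc40a1 the 3 points of Tam against ctrl and of Tam against TamFer1 lie above 0 and the 3 points of TamFer1 against Fer1 lie below 0, while for Ncoa4 replicate 3 lies apart from replicates 1 and 2.

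Of the import genes, Tfrc, the receptor that takes up transferrin-bound iron, had its highest mean in Tam and its lowest in medium. Its level was 22.2, 15.05 and 30.1 CPM in Tam, 13.98, 11.7 and 18.3 CPM in ctrl, 13.7, 10.4 and 10.96 CPM in TamFer1, 11.01, 15.02 and 14.2 CPM in Fer1, and 10.8 and 8.79 CPM in medium. Each Tam library was above the ctrl library of the same number, and every Tam library was above every TamFer1 and every medium library. Tam differed by 0.60 on the log2 scale from ctrl (SE 0.23, adjusted p = 0.34), by 0.90 from TamFer1 (SE 0.23, adjusted p = 0.0989) and by 1.06 from medium (SE 0.28, adjusted p = 0.0531), so none passed. By DESeq2 the difference from TamFer1 (0.90, adjusted p = 0.0200) and that from medium (1.05, adjusted p = 0.0114) did pass. The Tfrc counts behind these values were 79 to 238 per library.

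Tfrc is known to be high in dividing cells. The 16 cell cycle genes summed to 1489 to 1774 CPM in ctrl, 1418 to 1769 CPM in Fer1, 1474 to 1684 CPM in TamFer1, 420 to 957 CPM in Tam and 333 to 364 CPM in medium. Of the 16, 6 fell and none rose in Tam against ctrl (median log2 fold change -1.14, against 0.01 over all genes tested), 6 fell and none rose against TamFer1 (median -1.01), and 13 fell and none rose in medium against ctrl (median -2.85). Tam therefore combined a low cell cycle sum with the highest Tfrc mean, while medium combined the lowest cell cycle sum with the lowest Tfrc mean. The part of cell division in the Tfrc level was not tested.

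Slc11a2 encodes DMT1, which carries ferrous iron out of endosomes. It was measured at 40.0, 50.6 and 49.5 CPM in Tam, at 35.1, 28.6 and 27.1 CPM in ctrl, and at 53.0 and 38.9 CPM in medium. Every Tam library and every medium library was above every ctrl library. Against ctrl the log2 fold change was 0.62 in Tam (SE 0.19, adjusted p = 0.19) and 0.64 in medium (SE 0.22, adjusted p = 0.0844), so neither passed. TamFer1 (27.9, 37.0 and 40.1 CPM) lay below Tam in each replicate by 0.42 on the log2 scale (SE 0.19, adjusted p = 0.42), and Fer1 had 30.2, 30.7 and 37.2 CPM.

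Slc11a1 encodes the metal transporter of the phagosome, NRAMP1, of which C57BL/6 mice carry a loss-of-function allele. It was measured at 130, 125 and 86.4 CPM in Tam, at 69.8, 40.5 and 76.2 CPM in TamFer1, at 62.2, 80.9 and 159 CPM in ctrl, at 92.9, 64.9 and 91.2 CPM in Fer1, and at 107 and 82.5 CPM in medium. All Tam libraries were above all TamFer1 libraries (log2 fold change 0.95, SE 0.30, adjusted p = 0.19), and without replicate 3 this difference was 1.26 with an adjusted p of 0.0328. It was 0.98 without replicate 1 (adjusted p = 0.62) and 0.60 without replicate 2 (adjusted p = 1.00). Against ctrl the log2 fold change was 0.26 (SE 0.30, adjusted p = 0.85), with replicates 1 and 2 higher in Tam and replicate 3 lower. In medium against ctrl it was 0.06 (SE 0.35, adjusted p = 0.94).

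Ncoa4, the receptor that carries ferritin to lysosomes for breakdown, showed the same split of replicates. Its level in Tam was 174, 168 and 79.0 CPM, in ctrl 85.5, 87.3 and 128 CPM, in TamFer1 109, 66.1 and 78.6 CPM, in Fer1 90.8, 98.0 and 82.9 CPM, and in medium 132 and 154 CPM. Replicates 1 and 2 were higher in Tam than in ctrl by 1.02 and 0.94 on the log2 scale, and replicate 3 differed by -0.70. Over the 3 replicates the log2 fold change was 0.44 against ctrl (SE 0.28, adjusted p = 0.67) and 0.71 against TamFer1 (SE 0.28, adjusted p = 0.33). Without replicate 3 the difference from TamFer1 was 0.99 with an adjusted p of 0.0494, without replicate 1 it was 0.76 with an adjusted p of 0.72, and without replicate 2 it was 0.40 with an adjusted p of 1.00. In medium it was 0.43 above ctrl (SE 0.32, adjusted p = 0.47), with both medium libraries above all ctrl libraries. Fitted on the medium and ctrl libraries alone, with the replicate block, it was 0.69 with an adjusted p of 0.00236. Medium has no replicate 3, so that fit rested on the differences within replicates 1 and 2 (0.62 and 0.81).

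Ferritin stores iron in a shell of heavy and light chains. Fth1, the heavy chain with the ferroxidase site, had the highest level of the 10 genes, at 15915, 15126 and 8272 CPM in ctrl and 17088, 11849 and 11667 CPM in Tam. TamFer1 had 11718, 14996 and 12465 CPM, Fer1 had 15779, 13239 and 12811 CPM, and medium had 11309 and 8353 CPM. Tam differed from ctrl by 0.07 on the log2 scale (SE 0.21, adjusted p = 0.95) and from TamFer1 by 0.02 (SE 0.21, adjusted p = 0.99), and the direction against ctrl differed between replicates. In medium it was -0.51 (SE 0.24, adjusted p = 0.21), and ctrl replicate 3 lay below both medium libraries. Fitted on the medium and ctrl libraries alone, with the replicate block, Fth1 differed by -0.71 with an adjusted p of 8.68e-04. Medium has no replicate 3, so in that fit ctrl replicate 3 did not enter the difference. It rested on replicates 1 and 2, with differences of -0.49 and -0.86.

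The light chain row, Ftl1, had 949, 1877 and 1250 CPM in ctrl, 892, 1998 and 1690 CPM in Tam, 592, 1566 and 1736 CPM in TamFer1, 1326, 1207 and 2200 CPM in Fer1, and 2307 and 1533 CPM in medium. All groups overlapped with their neighbours. The log2 fold change was 0.13 in Tam against ctrl (SE 0.34, adjusted p = 0.94), 0.27 against TamFer1 (SE 0.34, adjusted p = 0.85) and 0.76 in medium against ctrl (SE 0.39, adjusted p = 0.26).

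The 3′ ends of Ftl1 and Gpx4 are nearly identical to those of other genes in the count table. A read of 50 bases from the last 400 transcript bases of Gpx4 was identical to one of the retrocopy Gpx4-ps2 (chr10:45875291-45876086) in 301 of 351 possible positions (85.8%), and the aligned ends were 99.8% identical. Over all libraries the Gpx4 row held 2445 counts and the Gpx4-ps2 row held 30701, so 3.19% to 11.2% of the combined reads stood in the Gpx4 row. For Ftl1, 215 of 351 positions (61.3%) were shared with Ftl1-ps1 (chr13:74399694-74407346), whose row held 661143 counts against 197437 for Ftl1, and 16.8% to 31.9% of the combined reads stood in the Ftl1 row. Fth1 shared 42 of 351 positions with Gm6977, whose row held 70 counts, Slc11a1 shared 19 (5.41%) with short stretches of 53 other genes, and the other 6 genes shared none. How the counting divided reads between such rows cannot be read from the counts. Gpx4-ps2 is annotated as a transcribed pseudogene and Ftl1-ps1 as protein-coding, so their rows may also hold transcripts of their own. The values of the Gpx4 and Ftl1 rows are therefore uncertain, and sums over copies were fitted as well.

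**Figure D3:**
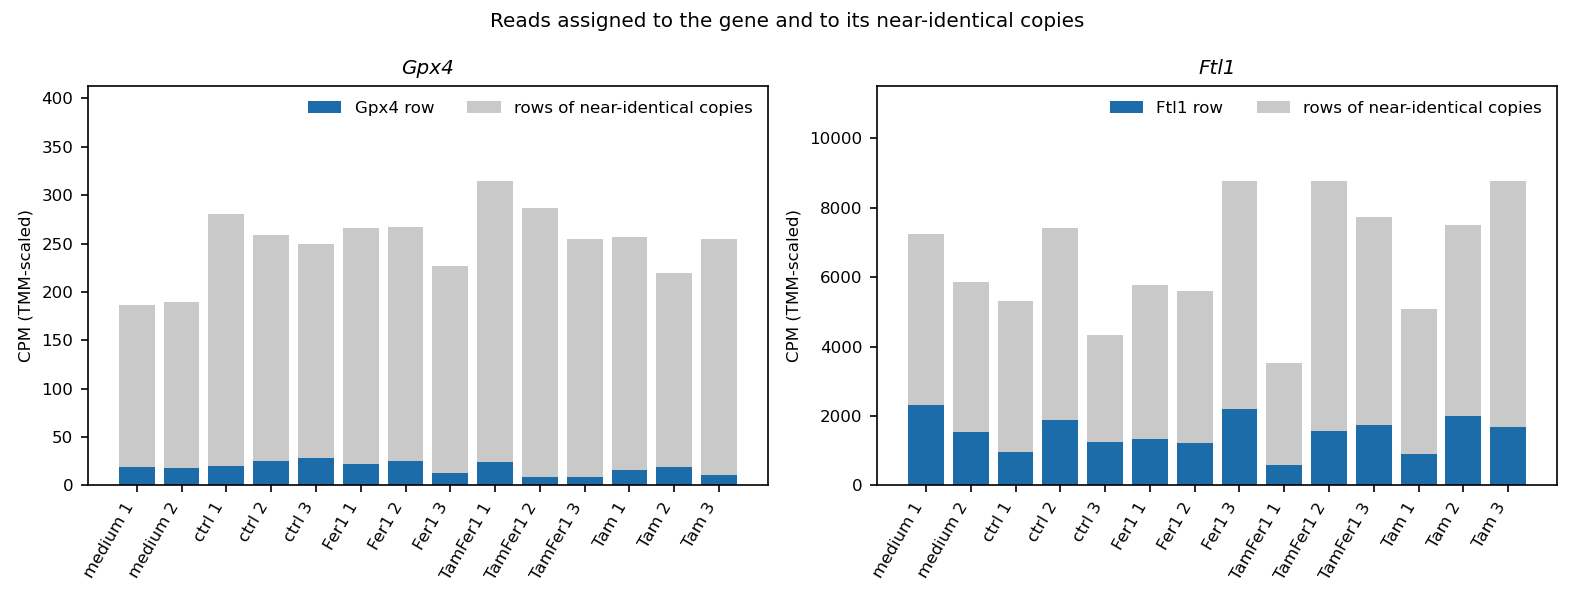
CPM of the Gpx4 row (left) and the Ftl1 row (right) in each library, in blue, with the rows of near-identical copies stacked on them in grey, on linear axes from 0. The Gpx4 row is at most 11.2% of a bar, and the 2 medium bars of Gpx4 (186 and 190 CPM) are below the ctrl bars (249 to 281 CPM).

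Gpx4, the enzyme that reduces lipid peroxides, was measured in its own row at 20.5, 24.9 and 27.9 CPM in ctrl, 15.9, 18.9 and 10.6 CPM in Tam, 24.3, 9.13 and 8.40 CPM in TamFer1, 22.1, 25.3 and 13.1 CPM in Fer1, and 18.8 and 18.5 CPM in medium. All Tam and medium libraries were below all ctrl libraries in this row. The log2 fold change was -0.76 in Tam against ctrl (SE 0.34, adjusted p = 0.44), 0.17 against TamFer1 (SE 0.34, adjusted p = 0.92) and -0.61 in medium against ctrl (SE 0.39, adjusted p = 0.39). With the copies added, the level was 281, 259 and 249 CPM in ctrl, 257, 220 and 254 CPM in Tam, 315, 286 and 254 CPM in TamFer1, 266, 267 and 227 CPM in Fer1, and 186 and 190 CPM in medium. On these sums the difference between Tam and ctrl was -0.11 (SE 0.13, adjusted p = 0.86), that between Tam and TamFer1 was -0.22 (SE 0.13, adjusted p = 0.56), and medium was lower than ctrl at a log2 fold change of -0.52 (SE 0.15, adjusted p = 0.0424). For Ftl1 the sums gave 0.28 in Tam against ctrl (SE 0.29, adjusted p = 0.83) and 0.32 in medium against ctrl (SE 0.33, adjusted p = 0.62).

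Aifm2, the ubiquinone oxidoreductase also called FSP1, overlapped between neighbouring groups throughout. It was measured at 12.3, 13.1 and 13.9 CPM in Tam, 17.5, 14.5 and 12.4 CPM in ctrl, 18.8, 14.2 and 13.7 CPM in TamFer1, 13.0, 13.7 and 16.1 CPM in Fer1, and 19.7 and 14.4 CPM in medium. The log2 fold change was -0.16 in Tam against ctrl (SE 0.20, adjusted p = 0.86), -0.24 against TamFer1 (SE 0.20, adjusted p = 0.73) and 0.18 in medium against ctrl (SE 0.22, adjusted p = 0.69). The gene overlaps H2afy2 on the opposite strand, and whether the counting used the strand is not given in the sources used here. The same holds for Slc11a2 with Gm5475 and for Ftl1 with Gm10252.

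Acsl4, which loads polyunsaturated fatty acids onto coenzyme A and so supplies the lipids that peroxidise, was measured at 105, 103 and 76.4 CPM in ctrl, 88.6, 86.8 and 59.0 CPM in Tam, 93.7, 81.7 and 56.6 CPM in TamFer1, 99.5, 97.6 and 62.8 CPM in Fer1, and 76.2 and 78.4 CPM in medium. Replicate 3 was the lowest library of each supernatant group. Tam was below ctrl in 3 of 3 replicates (log2 fold change -0.29, SE 0.12, adjusted p = 0.39), and it differed from TamFer1 by 0.02 (SE 0.12, adjusted p = 0.98). In medium the difference from ctrl was -0.47 (SE 0.14, adjusted p = 0.0506), which misses the threshold by little, and by DESeq2 it was -0.47 with an adjusted p of 0.00894.

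**Figure D4:**
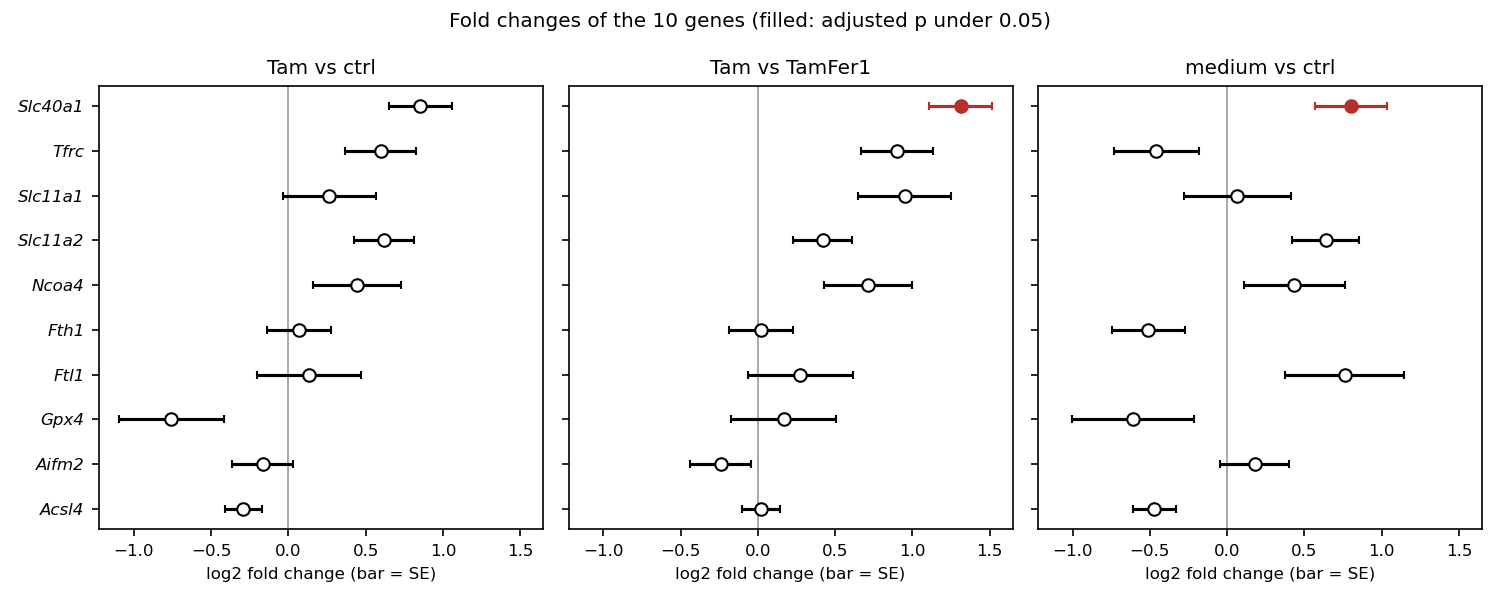
Log2 fold changes of the 10 genes in Tam against ctrl, Tam against TamFer1 and medium against ctrl, on one shared axis, with bars for the SE and filled points for an adjusted p under 0.05. Slc40a1 is filled in Tam against TamFer1 (1.31) and in medium against ctrl (0.80), and no point is filled in Tam against ctrl.

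Counted over the 10 genes, none passed the test in Tam against ctrl by edgeR, where 1.49% of all genes tested passed, 5 had an unadjusted p under 0.05 against 10.8% of all genes, and DESeq2 called 1 (Slc40a1). In Tam against TamFer1 1 of 10 passed, against 1.35% of all genes, and 5 had an unadjusted p under 0.05 against 11.8% of all genes. In that comparison 9 of 10 log2 fold changes were above 0, and in Tam against ctrl 7 of 10 were. The 9 included Fth1 and Acsl4 at 0.02 each, and Gpx4 at 0.17, which was -0.22 with copies merged. The median of the 10 was 0.20 in Tam against ctrl and 0.35 in Tam against TamFer1, where the median of all genes was 0.01 and 0.00. The libraries of Tam and ctrl did not overlap in 2 of the 10 genes (11.0% of all genes), those of Tam and TamFer1 in 3 (10.2%) and those of medium and ctrl in 4 (34.5%). In medium against ctrl 1 of 10 passed, against 10.9% of all genes, and 3 had an unadjusted p under 0.05 against 24.0% of all genes. The comparisons of Tam with ctrl and with TamFer1 share the Tam libraries.

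None of the 10 passed by edgeR in the other comparisons. In Tam against medium 4.26% of all genes passed, 2 of the 10 had an unadjusted p under 0.05 against 15.8% of all genes, and DESeq2 called 1 (Tfrc). In TamFer1 against ctrl 0.0311% of all genes passed, 4 of the 10 had an unadjusted p under 0.05 against 4.31% of all genes, and DESeq2 called 0 of them. In TamFer1 against Fer1 0.0233% of all genes passed, 0 of the 10 had an unadjusted p under 0.05 against 2.07% of all genes, and DESeq2 called 0 of them. For Ferrostatin-1 alone (Fer1 against ctrl) no gene passed by edgeR (0%), 146 genes and 0 of the 10 had an unadjusted p under 0.05, and DESeq2 called 3 genes, none among the 10. In the interaction 0.0311% of all genes passed, 2 of the 10 had an unadjusted p under 0.05 against 6.20% of all genes, and DESeq2 called 1 (Slc40a1).

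Over the 14 libraries, with the replicate effect removed, the levels of Ncoa4 and Slc11a1 moved most closely among the 10 genes (Pearson r = 0.87 on log2 CPM), followed by Ncoa4 with Slc40a1 (0.83) and Slc11a1 with Slc40a1 (0.77). Slc11a2 and Acsl4 moved in opposite directions (-0.78). These are descriptions over libraries that share groups and depth. Among all genes tested, the gene most like each of the 10 was Mapkapk5 for Slc40a1 (0.95), Trim13 for Tfrc (0.85), Htra2 for Slc11a1 (0.98), Amz1 for Slc11a2 (0.96), Itm2b for Ncoa4 (0.98), Atp6v1g1 for Fth1 (0.96), Hcls1 for Ftl1 (0.95), Snx13 for Gpx4 (0.94), Nes for Aifm2 (0.87) and Elovl6 for Acsl4 (0.93).

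The wider iron and ferroptosis lists held 124 further genes, of which 103 were tested. In Tam against ctrl 1 rose and 4 fell, in Tam against TamFer1 2 rose and 4 fell, and in medium against ctrl 5 rose and 10 fell, with medians of 0.00, 0.05 and -0.15 on the log2 scale. Of all genes tested 1.49%, 1.35% and 10.9% were called in these comparisons, counting both directions. The 6 iron regulatory and iron-sensing genes had median log2 fold changes of -0.04, 0.02 and -0.13 in these comparisons, and the 11 mitochondrial iron genes of -0.18, 0.06 and -0.36. Of the 18 genes of phospholipid remodelling and peroxidation tested, 3, 3 and 6 fell.

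Trf, transferrin itself, rose in Tam and in medium. Its level was 98.5, 118 and 193 CPM in ctrl, 254, 255 and 271 CPM in Tam, 69.5, 120 and 197 CPM in TamFer1, 109, 101 and 215 CPM in Fer1, and 342 and 311 CPM in medium. Every Tam and medium library was above every library of the other groups. For Trf the log2 fold change was 1.02 in Tam against ctrl (SE 0.23, adjusted p = 0.0478), 1.14 against TamFer1 (SE 0.23, adjusted p = 0.0353) and 1.58 in medium against ctrl (SE 0.26, adjusted p = 0.00175). The call against ctrl was lost without replicate 1 (adjusted p = 0.45), without replicate 2 (adjusted p = 0.69) and without the replicate block (adjusted p = 0.61), and the call against TamFer1 was lost in the same 3 fits (adjusted p = 0.54, 0.56 and 0.46). Gsr, the glutathione reductase, was 1.47 higher in Tam than in TamFer1 on the log2 scale (SE 0.31, adjusted p = 0.0411) but 0.13 above ctrl (SE 0.30, adjusted p = 0.93), with 11.8, 24.6 and 12.9 CPM in Tam, 4.71, 5.52 and 7.68 CPM in TamFer1, and 7.70, 14.8 and 25.2 CPM in ctrl. The Gsr call was lost without replicate 1 (adjusted p = 0.40), without replicate 2 (0.87) and without the replicate block (0.22).

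The desaturase genes Scd2, Scd1 and Fads2 fell in Tam, and Fads1, of the same list, did not pass (-0.44, adjusted p = 0.19 against ctrl, and -0.34, adjusted p = 0.34 against TamFer1). Scd2 and Scd1 encode stearoyl-CoA desaturases, which make monounsaturated fatty acids, and Fads2 encodes the desaturase that starts polyunsaturated fatty acid synthesis. Scd2 was at 118, 129 and 20.98 CPM in ctrl and at 19.5, 14.6 and 3.16 CPM in Tam (log2 fold change -2.84, SE 0.21, adjusted p = 1.06e-04). Fads2 had a log2 fold change of -2.45 (SE 0.19, adjusted p = 1.33e-04), and Scd1 of -3.05 (SE 0.43, adjusted p = 0.00898). Scd1 was at 18.3, 12.6 and 0.773 CPM in ctrl and at 1.58, 1.72 and 0.127 CPM in Tam. Its level in replicate 3 of Tam was below that of 3 counts. All 3 were also lower in Tam than in TamFer1, with log2 fold changes of -2.37 (Scd2), -1.85 (Fads2) and -2.95 (Scd1). Their log2 fold changes against ctrl changed little without replicate 2 (-2.65, -2.37 and -3.20 for Scd2, Fads2 and Scd1), but the adjusted p rose to 0.0613, 0.13 and 0.33, and without the replicate block it was 0.36, 0.19 and 0.48. Without replicate 1 the call of Scd1 against ctrl was lost (adjusted p = 0.20), and against TamFer1 all 3 calls were lost without replicate 1, without replicate 2 and without the replicate block. Replicate 3 had the lowest Scd2, Scd1 and Fads2 of each supernatant group, as it did for Acsl4.

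The desaturases also fell in fresh medium. The log2 fold change against ctrl was -5.11 for Scd2, -4.72 for Fads2, -4.13 for Scd1, -3.13 for Alox5 (5-lipoxygenase), -1.48 for Acsl3 and -1.31 for Fads1, with adjusted p between 1.75e-06 and 0.00146. The genes that rose beside Trf were Cp, the ferroxidase ceruloplasmin (2.32, adjusted p = 0.00851), Spic, a transcription factor of iron-recycling macrophages (2.85, adjusted p = 0.00881), Hspb1, a small heat shock protein (3.57, adjusted p = 0.0142), and Atf3, a stress-induced transcription factor (0.99, adjusted p = 0.0337). Hspb1 was at 4.06 and 2.22 CPM in medium and at 0.301 to 0.506 CPM in ctrl, which is near the level of 3 counts. Scd1 was at 1.27 and 0.334 CPM in medium, and the lower value was at the level of 3 counts. Spic was at 4.83 and 9.34 CPM in medium and at 1.32, 0.201 and 5.30 CPM in ctrl, so its groups overlapped. With medium reduced to 1 library, by leaving out replicate 1 or 2, the calls of all 5 genes that rose were lost, while those of Scd2 and Fads2 passed both times. Fads1 and Acsl3 lost the call both times (adjusted p between 0.0628 and 0.12), and Scd1 (adjusted p = 0.0813) and Alox5 (adjusted p = 0.13) lost it without replicate 2. Without the replicate block Scd1 (adjusted p = 0.17), Trf (0.11), Spic (0.50), Hspb1 (0.14) and Atf3 (0.0888) did not pass.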

How the data were processed

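RNA of 14 pBMDM samples in 5 groups was sequenced as single-end 3′ tags. The authors aligned the reads with STAR 2.7.10a, quantified genes with Salmon 1.5.2 in an nf-core pipeline and deposited an estimated count per gene and sample, not normalized. The methods name the human build GRCh38, the submitters' processing notes list GRCh38 and GRCm38, and the identifiers are those of mouse genes, so positions were taken by identifier from the GENCODE annotation of GRCm38. A second deposited table, with log2 fold changes and p-values of the authors' own DESeq2 comparisons and 14 CPM columns, was not used.

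Expected counts were rounded (30109 values were not whole), although the plan had spoken of counts that might need no rounding. All 14 samples entered 1 edgeR 4.0.16 quasi-likelihood model (R 4.3.3) with TMM factors (0.910 to 1.06), filterByExpr (minimum count 10), group, and the replicate number as a block. A gene was called at a Benjamini-Hochberg adjusted p under 0.05 over all 12851 genes tested. Differences within replicates used log2 CPM with a prior count of 2, and a standard error is the size of the log2 fold change over the square root of F. The methods name mouse ID as a covariate, and the replicate number was assumed to be the mouse: 26 pairs of libraries that share a number but not a group had a median correlation of deviations from group means of 0.25 (0.00221 to 0.65), against -0.14 for 52 pairs with different numbers. No 2 libraries of a group agreed within counting noise (chi-square per degree of freedom 10.8 to 80.4). The code was tested on simulated data that held no replicate effect, so the replicate block was not put to the test.

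Total counts lay between 7823051 and 11052352, and without molecular identifiers duplicates of one molecule count as several. The 10 genes and the lists were chosen with earlier results of these data known. Named beside the 10 were, per comparison and direction, up to 6 called genes of the iron and ferroptosis lists by adjusted p, and the tested gene most correlated with each of the 10, predicted genes left out. Alternatives were DESeq2 1.42.0, no replicate block, only the groups compared, RLE and upper-quartile factors, no filter, the study's call rule (absolute log2 fold change above 1), each replicate left out, and, chosen after seeing the data, near-identical copies merged. Copies were rows sharing at least 5% of the 50-base windows in the last 400 transcript bases. The values of 1 further gene of the wider lists are not reported here.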

Additional observations from a re-analysis of the deposited data

Results flagged for a closer look

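Slc40a1 stood out because it was higher with 4OHT in every replicate without Ferrostatin-1 (Tam against ctrl, log2 fold change 0.85, adjusted p = 0.0666) and lower in every replicate with Ferrostatin-1 (TamFer1 against Fer1, log2 fold change -0.31, adjusted p = 1.00). Neither difference passed the test. The difference between the 2 effects was 1.16 on the log2 scale, and the test of that difference by edgeR gave an adjusted p of 0.29. No group held 4 or more samples, so no group was searched for single samples far from the others.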

How the results depend on the processing

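The number of the 10 genes called in Tam against ctrl was 0, became 1 by DESeq2 and without the filter on low counts (Slc40a1 each time), and ranged from 0 to 1 with a replicate left out. In Tam against TamFer1 it was 1, became 2 by DESeq2 and 0 without the replicate block, and ranged from 0 to 3 with a replicate left out. In medium against ctrl it was 1, became 2 by DESeq2, 2 with RLE factors, 2 with copies merged (an alternative chosen after seeing the data), 3 with only the groups compared (Slc40a1, Fth1 and Ncoa4), 0 without the replicate block and 0 by the study's call rule, and ranged from 0 to 1 with a replicate left out. In Tam against medium it was 0, became 1 by DESeq2, 1 with upper-quartile factors, 1 without the filter and 2 with only the groups compared. In the interaction it was 0, became 1 by DESeq2, and ranged from 0 to 1 with a replicate left out. The cause of these shifts was not tested.

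Log2 fold changes that changed sign were those of Gpx4 in Tam against TamFer1 with copies merged (-0.22), which ranged from -0.21 to 0.73 with a replicate left out, and of Slc11a1 in medium against ctrl without the replicate block (-0.0909), which ranged from -0.25 to 0.36. With a replicate left out, Aifm2 in Tam against ctrl ranged from -0.33 to 0.00212, Fth1 from -0.13 to 0.28, Slc11a1 from -0.0615 to 0.80, and in Tam against TamFer1 Fth1 ranged from -0.20 to 0.20 and Acsl4 from -0.00960 to 0.0881. Ftl1 in medium against ctrl ranged from -0.0201 to 1.499, Slc40a1 in Fer1 against ctrl from -0.38 to 0.18 and Slc40a1 in Tam against medium from -0.14 to 0.19. Slc40a1 in Tam against TamFer1 kept its direction in all alternatives run, from 1.21 to 1.42 with a replicate left out. Of 540 refitted log2 fold changes for 59 results, 443 kept direction and side of the threshold, 67 lost the call, 18 gained it and 12 changed sign.

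Over all genes, the calls in Tam against ctrl were 192, and 418 by DESeq2, 7 without the replicate block, 325 without the filter, 0 with only the groups compared and 0 to 249 with a replicate left out. In Tam against TamFer1 they were 174, and 408, 20, 285, 37 and 0 to 299 in the same order. In medium against ctrl they were 1396, and 1746, 523, 1338, 2498 and 87 to 1494, in Tam against medium 548, and 856, 104, 647, 1498 and 0 to 712, and in the interaction 4, and 88, 0, 32, 2 and 0 to 26. Where replicate 1 or 2 was left out, medium was a single library, assumed to vary like the other groups. Fits of only medium and another group had no medium library of replicate 3, so their differences rested on replicates 1 and 2.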
